A study of Saccharomyces cerevisiae with 24 samples.

Results

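The comparison is between RNA isolated with the Phenol method and RNA isolated with the RNeasy method from yeast that had been held for 20 min at 37 °C. Its members are 8 of the 24 RNA-seq libraries of the series: the 4 biological replicates of Phenol heat and the 4 biological replicates of RNeasy heat, chosen by their method and time labels. All libraries came from BY4741, a laboratory strain of Saccharomyces cerevisiae of mating type a (MATa his3Δ1 leu2Δ0 met15Δ0 ura3Δ0), so that both groups carried the same deletions. Each biological replicate was a culture grown at 30 °C and shifted to 37 °C, from which identical samples were taken for each method. In the Phenol method cells were lysed with hot acid phenol and SDS, and the RNA was then passed over an RNeasy column with DNase treatment. In the RNeasy method cells were broken with beads and the RNA was bound to the silica column of the kit, also with DNase treatment on the column. The remaining libraries were unstressed cells isolated with the same 2 methods, and cells of both treatments isolated with another kit, Direct-zol, with 4 libraries in each of the 6 groups.

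Heat shock makes yeast accumulate messages for chaperones, trehalose enzymes and other stress proteins and lose messages for ribosome production. An mRNA for a membrane or secreted protein is usually translated at the endoplasmic reticulum, one for a nuclear or cytosolic protein usually on free ribosomes. The comparison asks whether both ways of opening the cell return these messages in the same proportions. TPM are relative abundances per length with a fixed total, so a larger share for some transcripts leaves a smaller one for others. By the study's design identical samples of each culture went to both methods, so the comparison is of isolation methods and not of different cells. The paper reports high RNA integrity for all methods, on average somewhat higher for Phenol than for RNeasy, and unequal shares of uniquely mapped reads. Those values were not used here. At which step from lysis to library a difference arises was not tested.

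To show what kind of coding sequence lay at each end of the comparison, the 90 bases around the middle of the open reading frame (ORF) are given. They are from the 3 transcripts highest and the 3 lowest in Phenol among those named below with little sequence shared with other genes. Then follow 3 strongly heat-induced transcripts. Sequences are from the RefSeq copy of the R64 genome, 5′ to 3′ on the coding strand, with A in capitals.
PRY3: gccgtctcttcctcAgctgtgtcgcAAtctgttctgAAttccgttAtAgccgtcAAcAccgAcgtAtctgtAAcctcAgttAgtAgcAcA
PMP3: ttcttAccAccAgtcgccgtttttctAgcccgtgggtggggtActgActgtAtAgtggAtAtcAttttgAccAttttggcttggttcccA
ACP1: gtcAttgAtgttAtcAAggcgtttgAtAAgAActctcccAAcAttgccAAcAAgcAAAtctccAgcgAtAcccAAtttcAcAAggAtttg
RRP14: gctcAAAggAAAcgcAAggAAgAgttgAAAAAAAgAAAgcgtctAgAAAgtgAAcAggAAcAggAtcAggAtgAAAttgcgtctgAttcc
FYV7: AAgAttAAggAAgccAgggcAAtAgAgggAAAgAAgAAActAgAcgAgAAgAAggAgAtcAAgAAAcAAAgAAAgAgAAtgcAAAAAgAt
EAF7: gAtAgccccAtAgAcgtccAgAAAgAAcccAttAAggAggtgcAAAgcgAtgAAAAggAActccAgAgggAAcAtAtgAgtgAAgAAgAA
TKL2: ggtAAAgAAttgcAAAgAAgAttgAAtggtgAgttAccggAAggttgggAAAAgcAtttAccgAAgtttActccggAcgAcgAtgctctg
HSP26: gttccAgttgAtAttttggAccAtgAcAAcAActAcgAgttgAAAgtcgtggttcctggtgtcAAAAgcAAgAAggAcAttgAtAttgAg
TMA10: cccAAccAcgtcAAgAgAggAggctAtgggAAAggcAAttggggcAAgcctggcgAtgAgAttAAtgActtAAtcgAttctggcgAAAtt

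The stretches lie in exons at chrX:292614-292703 (minus strand) for PRY3, chrIV:1013515-1013604 (minus) for PMP3, chrXI:80304-80393 (minus) for ACP1, chrXI:281634-281723 (minus) for RRP14, chrXII:271191-271280 (plus) for FYV7 and chrXIV:370962-371051 (plus) for EAF7. TKL2 lies at chrII:475370-475459 (minus), HSP26 at chrII:382306-382395 (plus) and TMA10 at chrXII:783214-783303 (minus). A made up 21.1% of the PRY3 stretch, 15.6% of PMP3 and 32.2% of ACP1, against 42.2% of RRP14, 54.4% of FYV7 and 42.2% of EAF7. Over the whole ORF the difference was of the same kind, with 26.5, 22.0 and 27.2% A in PRY3, PMP3 and ACP1 and 43.8, 46.3 and 43.4% A in RRP14, FYV7 and EAF7. For the heat-induced TKL2, HSP26 and TMA10 the stretches held 32.2, 31.1 and 31.1% A, and the whole ORFs 28.0, 31.3 and 35.6%. Their log2 fold changes, Phenol over RNeasy, were 1.09, -0.00 and -1.06, so the whole ORFs followed that order and the stretches did not.

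Of 5870 transcripts tested, 2677 (45.6%) differed between Phenol and RNeasy in heat-shocked cells (limma, Benjamini-Hochberg adjusted p, the FDR, under 0.01). Of these, 1419 (24.2%) were higher and 1258 (21.4%) were lower in Phenol. Most differences were moderate, with a median absolute log2 fold change of 0.31 over all transcripts, and 134 transcripts were higher and 39 lower by at least 1 on the log2 scale. Of those called, 2641 had the same sign in each of the 4 Phenol and RNeasy pairs formed by replicate number. Values below are TPM divided by a scaling factor for each library, which ran from 0.924 to 0.984 in Phenol heat and from 1.18 to 1.27 in RNeasy heat, and log2 fold changes are of scaled TPM + 1, Phenol over RNeasy. With TPM as deposited the median of all transcripts was -0.35, and 658 were then higher and 2945 lower. In those unscaled values all 4 Phenol libraries lay above all 4 RNeasy libraries for 605 transcripts (10.3%), and below them for 2803 (47.8%).

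The genes that mark strain and mating type were as the labels say. In the 8 libraries LEU2 and URA3 were listed at 0 TPM and MET17 at no more than 0.1 TPM, and MFA1, MFA2, STE2 and BAR1 of mating type a were at 97.0 TPM or more, while STE3 of the other mating type reached at most 13.2 TPM. HIS3, of which the his3Δ1 allele keeps a part, was at 47.9 to 99.8 TPM. Deviations from the group means correlated between Phenol and RNeasy libraries of the same number at 0.48 for replicate 1 and 0.56 for replicate 3, but at -0.23 for replicate 2 and -0.02 for replicate 4. The correlation was 0.43 between Phenol replicate 2 and RNeasy replicate 4, and 0.24 between Phenol replicate 4 and RNeasy replicate 2. The labels were kept as given. Without the replicate as a block in the model, which does not use these numbers, 2521 transcripts were called.

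Among transcripts with an annotated ORF, those highest in Phenol encoded proteins of the cell surface and of membranes, together with a few soluble enzymes. Named here are the 10 with the highest fold change among 574 transcripts with an annotated ORF that met further conditions. These passed the test with the same sign in each pair, did not overlap between groups in deposited TPM and averaged at least 10 TPM. Separate libraries and a small adjusted p were thus conditions for being named and are not further evidence. PRY3, a cell wall protein with a lipid anchor, had 451, 271, 457 and 350 scaled TPM in Phenol heat and 119, 142, 173 and 109 in RNeasy heat. Its log2 fold change was 1.47 ± 0.18 (SE; adjusted p = 1.7e-06, limma). PMP3, a very small plasma membrane protein, had 579, 969, 856 and 978 scaled TPM in Phenol heat and 273, 405, 319 and 311 in RNeasy heat, a log2 fold change of 1.35 ± 0.14 (adjusted p = 2.9e-07, limma). PMA1, the proton pump of the plasma membrane and one of its main proteins, had 1786, 1490, 1371 and 1663 scaled TPM in Phenol heat and 719, 662, 576 and 616 in RNeasy heat. The log2 fold change of PMA1 was 1.29 ± 0.10 (adjusted p = 6.4e-09, limma).

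The other 7 were of mixed function. HPF1, a cell wall mannoprotein, rose by 1.31 ± 0.13 on the log2 scale and BGL2, a glucan-modifying cell wall enzyme, by 1.28 ± 0.10. TVS1, whose ORF encodes 9 hydrophobic windows, rose by 1.3 ± 0.15. PET9, the main ADP/ATP carrier of the mitochondrial inner membrane, averaged 467 scaled TPM in Phenol heat and 191 in RNeasy heat, a rise of 1.3 ± 0.12. ACP1, the soluble acyl carrier protein of mitochondria, had 1202, 1105, 1341 and 1370 scaled TPM in Phenol heat and 490, 667, 442 and 439 in RNeasy heat. DUG1, a cytosolic dipeptidase of glutathione breakdown, had 463, 475, 466 and 528 scaled TPM in Phenol heat and 203, 217, 186 and 187 in RNeasy heat, a rise of 1.28 ± 0.08 with the smallest adjusted p of the 10 (1.7e-09, limma). Neither ACP1 nor DUG1 encodes a hydrophobic window. CPP3, a small cysteine-rich protein, was the least certain of them, with 23.5, 57.1, 21.7 and 48.2 scaled TPM in Phenol heat, 11.5, 13.4, 15.5 and 13.2 in RNeasy heat, and a log2 fold change of 1.31 ± 0.33 (adjusted p = 0.0023, limma). Its call was lost with TPM as deposited (adjusted p = 0.011) and with a pseudocount of 0.1 (adjusted p = 0.17, both limma).

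**Figure D1:**
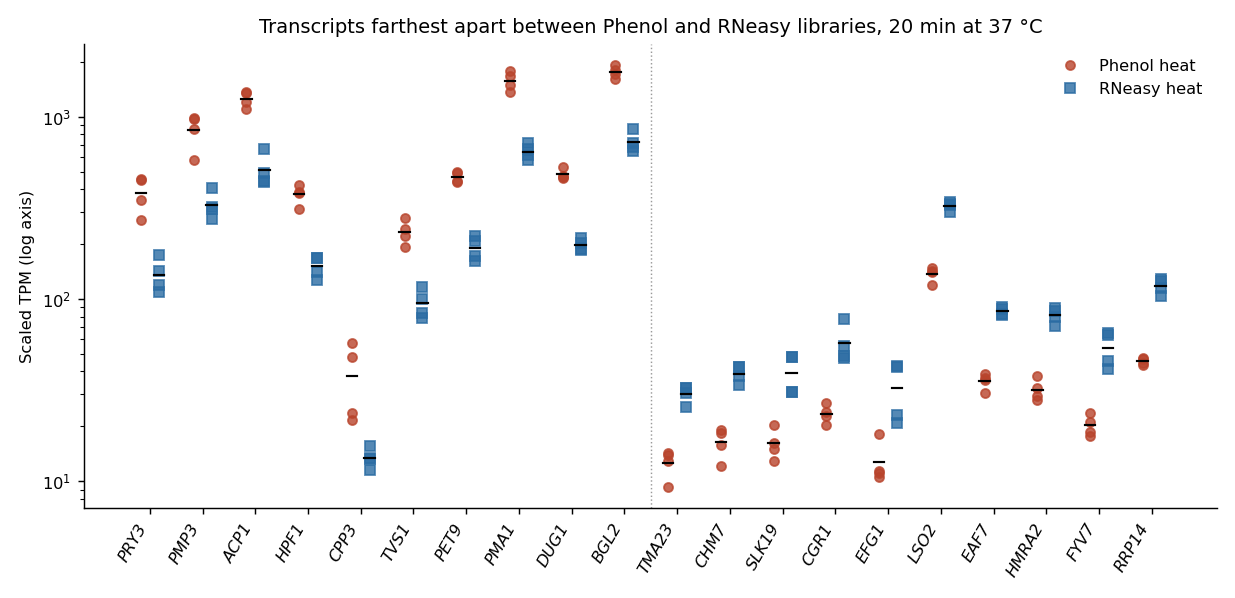
Scaled TPM (log axis) of the 10 transcripts highest (left of the dotted line) and the 10 lowest (right) in Phenol. Each circle is a Phenol heat library, each square an RNeasy heat library and each bar the mean of 4. The groups do not overlap for any of the 20 on this axis, as the selection required in deposited TPM.

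The transcripts lowest in Phenol were mostly for nuclear and nucleolar proteins, chosen by the same rule from 1209 that qualified. RRP14, a ribosome biogenesis protein of the nucleolus, had 44.6, 43.3, 47.4 and 46.9 scaled TPM in Phenol heat and 128, 104, 115 and 125 in RNeasy heat. The groups were far apart compared with their spread, at a log2 fold change of -1.35 ± 0.10 (SE; adjusted p = 3.6e-09, limma). FYV7, needed for ribosomal RNA processing, had 18.6, 21.1, 17.6 and 23.7 scaled TPM in Phenol heat and 64.6, 41.3, 45.9 and 63.7 in RNeasy heat, a log2 fold change of -1.35 ± 0.12. EAF7, a subunit of the NuA4 histone acetyltransferase, had 30.4, 36.6, 38.7 and 35.9 scaled TPM in Phenol heat and 82.8, 81.4, 90.1 and 88.4 in RNeasy heat. It fell by 1.26 ± 0.08 (adjusted p = 2.1e-09, limma), and the lowest RNeasy library was above 2 times the highest Phenol library.

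Among the others, EFG1, CGR1 and TMA23 also act in ribosome biogenesis and fell by 1.23 ± 0.26, 1.23 ± 0.17 and 1.21 ± 0.15 on the log2 scale. LSO2, a small ribosome-associated protein, had 119, 141, 148 and 142 scaled TPM in Phenol heat and 330, 299, 340 and 332 in RNeasy heat and fell by 1.24 ± 0.09. SLK19, a kinetochore protein, fell by 1.22 ± 0.19, and CHM7, a surveillance protein of the nuclear envelope, by 1.22 ± 0.11. HMRA2 of the silent mating cassette averaged 31.8 scaled TPM in Phenol heat and 81.5 in RNeasy heat. All of its 50-base sequences occur in other annotated ORFs, so its reads cannot be placed with certainty. None of the 10 ORFs encodes a hydrophobic window, and their A content ran from 40.5 to 46.3%, above the median of 32.7% over all ORFs.

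The A content of the ORF went with the fold change more closely than the other ORF properties examined. Across 5660 transcripts with an annotated ORF, Spearman's rank correlation between the percentage of A and the log2 fold change was -0.80 (Pearson's r -0.78), a description across genes, which are not independent replicates. It was between -0.67 and -0.80 in the 4 pairs of libraries taken one at a time. ORFs were then put in 5 bins of equal size. In the bin with the least A (16.7 to 29.4%), 788 of 1132 transcripts (69.6%) were higher in Phenol, 0 were lower and the median log2 fold change was 0.67. The median was 0.22 in the next bin, -0.03 in the middle bin and -0.20 in the one after it. In the bin with the most A (35.5 to 47.4%), 7 (0.618%) were higher, 756 (66.8%) were lower and the median was -0.46. At the very ends, 35 of the 50 ORFs poorest in A were higher and 0 lower, while 0 of the 50 richest were higher and 39 were lower.

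The other bases did not mirror this evenly. The rank correlation was 0.52 for C, 0.40 for T and 0.07 for G, and 0.46 for GC content, which ran between 0.20 and 0.56 in single pairs. A at each codon position gave -0.53, -0.65 and -0.62, and A in the first and in the last of 3 equal parts of the ORF gave -0.65 and -0.61. The share of lysine, whose codons are rich in A, gave -0.52, and ORF length gave 0.09. Among the less abundant 50% of transcripts the rank correlation for A was -0.77, and among the more abundant -0.81. Transcripts called higher in Phenol had a median A content of 29.0% (upper quartile 30.7%), those called lower 36.0% (lower quartile 34.7%) and those not called 32.8%. Weighted by TPM, the mean A content of the ORFs was 29.4 ± 0.10% in Phenol heat and 30.7 ± 0.16% in RNeasy heat (SD, n = 4 each), with every Phenol library below every RNeasy library.

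The rank correlation for A was also -0.68 for Phenol over Direct-zol and 0.37 for RNeasy over Direct-zol, on the same heat-shocked cultures. These contrasts share libraries with the comparison of Phenol and RNeasy and are given only side by side. The libraries were selected by poly(A) tails, and UTRs and tails are not part of the ORF, so nothing here measures them. Whether recovery, poly(A) selection or another step carries the relation with A was not tested.

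**Figure D2:**
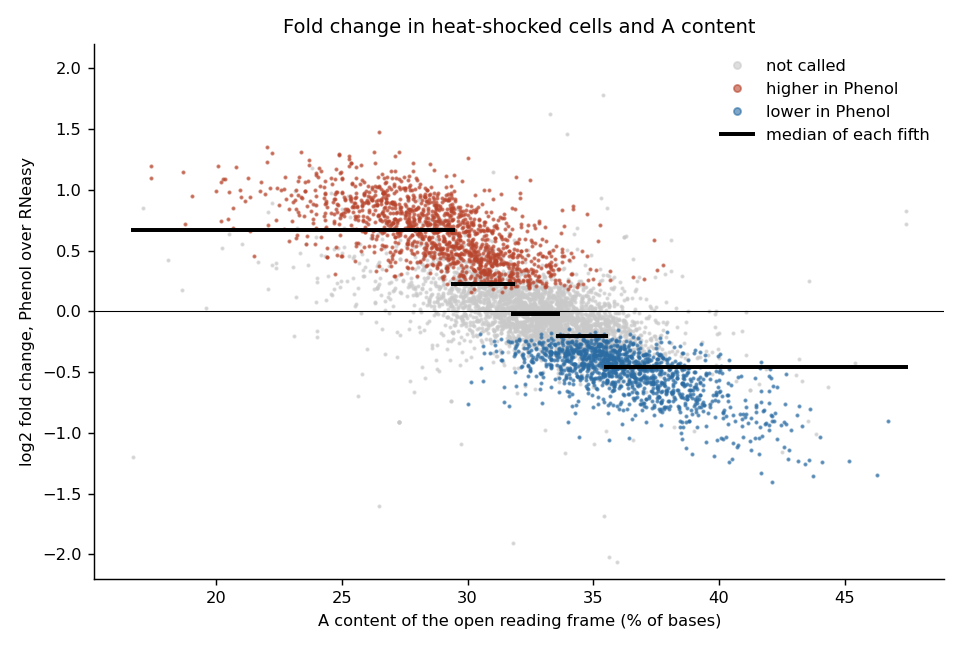
log2 fold change of Phenol over RNeasy in heat-shocked cells (y axis) against the A content of the ORF (x axis, % of bases) for 5660 transcripts, coloured by call. Black bars span each of the 5 bins of A content at its median fold change, 0.67 at the A-poor end and -0.46 at the A-rich end.

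Transcripts for proteins with several predicted membrane spans were more often higher in Phenol than those without, whereas those with a single internal one were near the share of all transcripts. A protein was counted by its windows of 19 residues with a mean hydropathy of at least 1.6, which is a crude prediction that also finds signal peptides. Of 285 transcripts with 6 or more windows, 244 (85.6%) were higher, 0 were lower and the median log2 fold change was 0.72. With 2 to 5 windows, 268 of 512 were higher and 25 lower, at a median of 0.40. With a window only near the N terminus, as in a signal peptide, 95 of 242 were higher and 13 lower, at a median of 0.25. With a single internal window 171 of 650 were higher and 127 lower, at a median of 0.01. Without a window, 603 of 3971 (15.2%) were higher, 1090 (27.4%) were lower and the median was -0.10. Counted together, ORFs with at least 1 window took up 27.5 ± 1.10% of deposited TPM in Phenol heat and 22.2 ± 0.79% in RNeasy heat (SD, n = 4 each), and the libraries of both groups did not overlap.

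ORFs with a window were also poorer in A, with a median of 30.6%, against 33.5% in those without, so both properties were set side by side. In the bin with the least A, the median log2 fold change was 0.74 for 650 transcripts with a window and 0.51 for 482 without. In the next bin these medians were 0.31 with and 0.17 without a window, and in the middle bin 0.05 and -0.05. In the one after it they were -0.18 with and -0.21 without, and in the bin with the most A -0.38 for 119 transcripts with a window and -0.47 for 1013 without. In every bin the median was higher with a window than without, by less than the span across bins of transcripts with no window.

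Most members of the cell wall and plasma membrane groups were higher in Phenol. The gene groups were drawn up with earlier results of these data known, and their counts are to be read against the 24.2% higher and 21.4% lower among all transcripts and a median of 0.00. With TPM as deposited, medians shift by about the -0.35 of all transcripts, and those of the mitochondrial carriers (-0.15), aminoacyl-tRNA synthetases (-0.15), endoplasmic reticulum folding genes (-0.20), translocon (-0.26), mitochondrial chaperones (-0.27), cytosolic ribosomal proteins (-0.24), RNA polymerase I (-0.33) and stress transcription factors (-0.34) turn negative. With quantile normalization the medians of the cytosolic ribosomal proteins (-0.14), translocon (-0.20), mitochondrial chaperones (-0.16), endoplasmic reticulum folding genes (-0.02), stress transcription factors (-0.04) and trehalose genes (-0.03) are also negative. Of 25 tested cell wall proteins with a GPI lipid anchor 24 were higher and 0 lower, with a median log2 fold change of 0.96. SED1, the most abundant of them and a main structural wall protein of the yeast, had 34475, 21886, 37221 and 24478 scaled TPM in Phenol heat and 10896, 13228, 17951 and 9243 in RNeasy heat, a rise of 1.21 ± 0.22. FIT1, an iron-binding mannoprotein of the wall, was the one not called (0.36 ± 0.15). Of the 5 PIR wall proteins, 4 were higher. Among them HSP150, which is itself heat-induced, averaged 11662 ± 2418 scaled TPM in Phenol heat and 5129 ± 1252 in RNeasy heat (SD, n = 4 each), and PIR5 was at -0.01 ± 0.24. Of 8 plasma membrane stress proteins and proton pump genes 5 were higher and 0 lower, and the fold changes of all 8 lay between 0.79 for PMA2, a second proton pump, and 1.35 for PMP3.

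The 20 amino acid permeases were all higher, at a median of 0.76, from SSY1, an amino acid sensor, at 0.26 to MMP1, a methylmethionine permease, at 0.96, with DIP5, a permease of acidic amino acids, the most abundant at 0.74. SSY1 went to -0.09 with TPM as deposited, above the shift of -0.35 of all transcripts. Of 15 tested hexose transporters 10 were higher and 0 lower. HXT7, a high-affinity transporter, rose by 1.00 ± 0.25, but 95.1% of its 50-base sequences occur in other annotated ORFs, and its call was lost without the replicate block (adjusted p = 0.026, limma). HXT14 was below 1 scaled TPM in the mean of each group. Of 9 eisosome genes, for the membrane furrows of the cell cortex, 5 were higher. Their membrane proteins SUR7 and NCE102 rose by 0.98 and 0.80, while PIL1, the soluble protein that coats the furrows, was at 0.13 ± 0.07 and took a negative value with TPM as deposited (-0.23) and with quantile normalization (-0.24).

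The secretory pathway was uneven. Of 15 oligosaccharyl and mannosyl transferase genes, which glycosylate proteins in the endoplasmic reticulum, 12 were higher and 0 lower, at a median of 0.79. PMT4 rose by 1.02 and OST1 by 0.79, and OST2 was at 0.39 ± 0.13 without being called. Of 8 p24 cargo receptors 5 were higher, ERP1 by 0.90 and EMP24 by 0.63, and ERP5 was at 0.04, or -0.32 with TPM as deposited. Of 9 translocon genes 4 were higher and 1 lower. SEC61, the channel itself, averaged 665 ± 81.3 scaled TPM in Phenol heat and 309 ± 37.5 in RNeasy heat (SD, n = 4 each), a rise of 1.10 ± 0.11. SEC72, a soluble partner on the cytosolic face, fell by 0.55 ± 0.09. Of 14 folding genes of the endoplasmic reticulum 5 were higher, led by PDI1, the disulfide isomerase, with a rise of 1.01 ± 0.09, and JEM1, a J-domain protein, was at -0.08 ± 0.13. Of 7 vacuolar protease genes 6 were higher, PRC1 by 0.99 and PEP4 by 0.90. APE1, which reaches the vacuole from the cytosol without entering the endoplasmic reticulum, was at 0.33 ± 0.12 and was not called.

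Lipid synthesis was higher in most members. Of 24 ergosterol genes 18 were higher and 1 lower, at a median of 0.80. NCP1, the reductase that feeds electrons to the pathway, rose by 1.10 ± 0.10 and ERG25, the sterol methyl oxidase and most abundant member, by 0.93 ± 0.10. IDI1, the soluble isopentenyl diphosphate isomerase, fell by 0.32 ± 0.08, with an A content of 34.6%, above the 27.3% of ERG25. Of 21 sphingolipid genes 15 were higher and 0 lower, at a median of 0.69. AUR1, which makes inositol phosphorylceramide, had 168, 135, 139 and 156 scaled TPM in Phenol heat and 83.6, 76.4, 83.0 and 65.3 in RNeasy heat, and all Phenol libraries were above the RNeasy libraries. LCB5, a soluble kinase, and LIP1, a ceramide synthase subunit, were at -0.26 and 0.16 and were not called. Of 30 mitochondrial carriers 11 were higher and 2 lower, from PET9 at 1.3 to SFC1 at -0.40 ± 0.20, which was not called.

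Glycolysis genes, which encode abundant soluble enzymes, were higher too. Of 17 glycolysis genes 16 were higher and 0 lower, at a median of 0.85, although none encodes a hydrophobic window, and their median A content was 27.1%. They held 10.1 ± 0.86% of deposited TPM in Phenol heat and 6.58 ± 0.28% in RNeasy heat (SD, n = 4 each). ENO1, enolase, rose by 1.25 ± 0.12 and TDH3, glyceraldehyde-3-phosphate dehydrogenase and the most abundant member, by 1.14 ± 0.19, with 23.6 and 24.4% of their 50-base sequences shared with other genes. The fold change of TDH3 was 0.23 (adjusted p = 0.26, limma) with quantile normalization, and the median of the group was then 0.36. HXK1, a hexokinase, was at 0.30 ± 0.26 and was not called.

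Of 138 cytosolic ribosomal protein genes, 14 were higher and 1 was lower, 10.1% and 0.725%, and the group's median of 0.12 was negative with TPM as deposited and with quantile normalization. RPL4A rose by 1.22 ± 0.15, RPL35B fell by 0.83 ± 0.24 and RPS26A, the most abundant, was at -0.03 ± 0.20, and for the first 2 most 50-base sequences are shared with their paralogs. After the values were seen it was noticed that the 5 genes for the acidic stalk of the ribosome were all among those higher. RPP0 rose by 1.19, RPP2A by 1.10, RPP1B by 1.01, RPP1A by 0.93 and RPP2B by 0.90.

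Actin patch genes, for the endocytic scaffold, were split. Of 14 members 10 were higher and 2 lower, with VRP1, the yeast homologue of the WASP-interacting protein, at 0.90 ± 0.25 and END3 at -0.67 ± 0.11. ENT2, an epsin, was at 0.18 ± 0.19. These proteins are soluble, and 1 of the 14 ORFs encodes a hydrophobic window. The median A content of the group was 32.8%, near the 32.7% over all ORFs, although most members were higher. Of 18 aminoacyl-tRNA synthetases 7 were higher and 0 lower, DPS1 by 0.56 ± 0.08, with SES1 at -0.15 ± 0.13.

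Lower in Phenol were many genes of the nucleus, the nucleolus and the mitochondrial ribosome. Of 12 genes of the NuA4 histone acetyltransferase 8 were lower and 0 higher, at a median of -0.51. EAF6 fell by 0.73 ± 0.09 and EAF3 was at -0.03 ± 0.06. Of 12 SWI/SNF genes, for a chromatin remodeller, 5 were lower and 0 higher, RTT102 by 0.70 and TAF14 by 0.39, with ARP7 at 0.05, or -0.31 with TPM as deposited. Of 87 ribosome biogenesis genes 32 were lower and 2 higher, at a median of -0.30. NOP1, the methyltransferase fibrillarin, was an exception and rose by 0.52 ± 0.13, with an A content of 24.4% against a median of 35.8% in the group. Its call was lost with quantile normalization (adjusted p = 0.017) and with TPM as deposited (adjusted p = 0.24, both limma).

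Of 67 mitochondrial ribosomal proteins 27 were lower and 4 higher, at a median of -0.26. MRPS17 averaged 56.6 ± 2.11 scaled TPM in Phenol heat and 109 ± 5.97 in RNeasy heat (SD, n = 4 each), a fall of 0.93 ± 0.07, whereas MRPS12 rose by 0.69 ± 0.08. MRP8, counted in the group although its annotated product, Mrp8p, names no ribosomal role, was at -0.30 ± 0.10 and was not called. Of 32 proteasome genes 11 were lower and 0 higher, at a median of -0.13, or -0.54 with quantile normalization, with RPN5 at -0.63 ± 0.08, PRE10 at -0.03 and PUP1 at 0.24 ± 0.08. The median A content of the proteasome genes was 32.0%, not above the 32.7% over all ORFs. Of 11 genes of dynein and dynactin, the motor that moves the nucleus, 6 were lower and 1 higher. JNM1 had 7.41, 14.7, 13.6 and 13.8 scaled TPM in Phenol heat and 26.1, 24.6, 24.3 and 29.8 in RNeasy heat, with all Phenol libraries below. DYN2 fell by 0.50 ± 0.11 and LDB18 rose by 0.38 ± 0.08.

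RNA polymerase I and histones showed no common direction. RPA14 rose by 0.87 and overlaps another annotated gene, RPA34 fell by 0.51 ± 0.16 with a call near the threshold (adjusted p = 0.0096) that was lost under 5 alternatives using all 8 libraries (adjusted p 0.011 to 0.014, limma), and 5 of 8 members were not called. Of 10 histone genes HTB2 rose by 0.48 and HHF2 fell by 0.58, while HHT2, the most abundant, was at -0.01 ± 0.21.

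**Figure D3:**
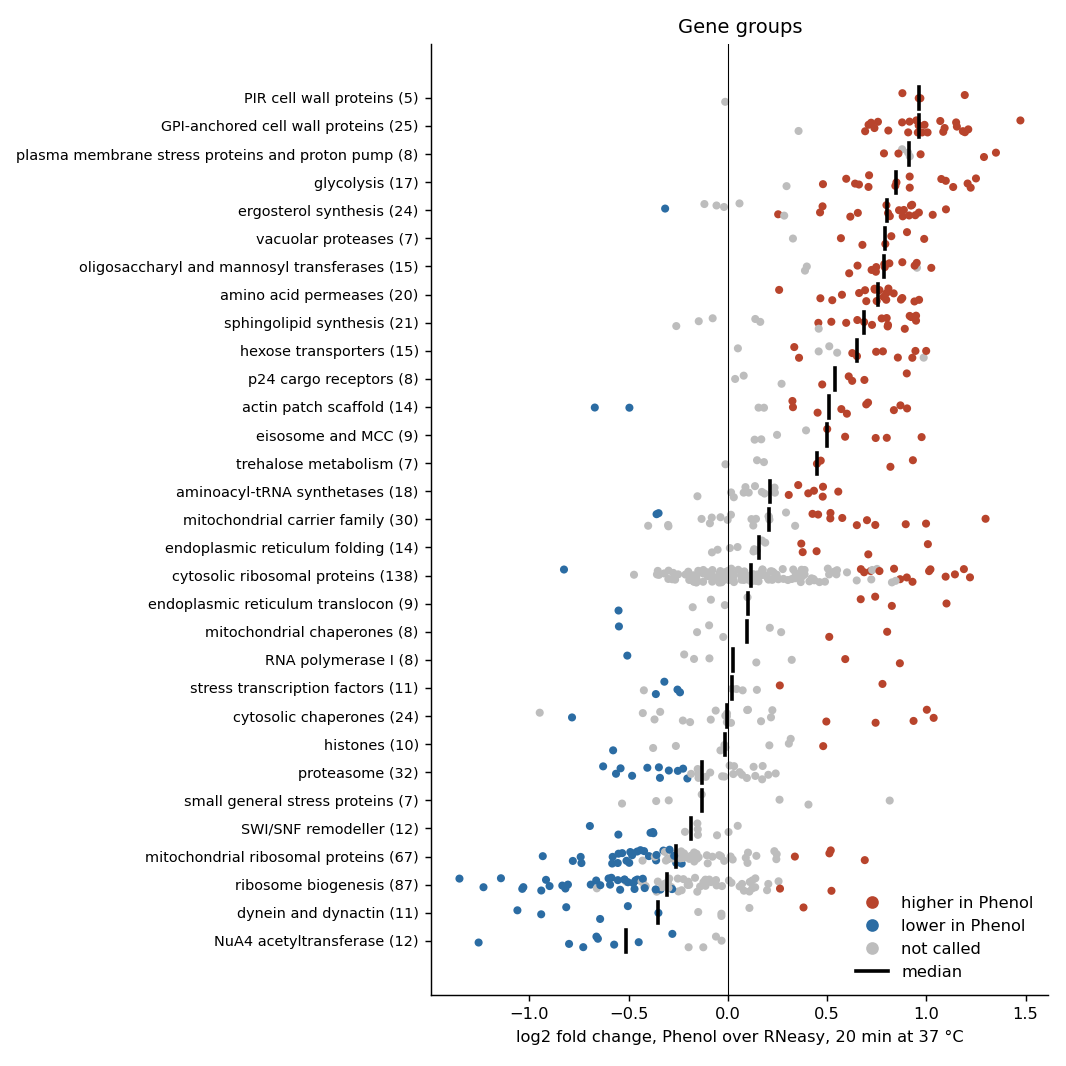
log2 fold change of Phenol over RNeasy in heat-shocked cells (x axis) for the tested members of 31 gene groups (rows, number tested in brackets), coloured by call, with the median of each group as a bar. Medians run from 0.96 for GPI-anchored and PIR cell wall proteins to -0.51 for NuA4.

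Quantitative PCR was run in the study on some of these transcripts. All 7 of them were called here. LAS17, an actin assembly factor, had 174, 85.7, 167 and 109 scaled TPM in Phenol heat and 65.0, 69.7, 93.8 and 55.9 in RNeasy heat, with an overlap of 1 Phenol library and the RNeasy range and a rise of 0.87 ± 0.22 (adjusted p = 0.0020, limma). With PRY3 and SED1 above it, and ERV25, a p24 protein, which rose by 0.48 ± 0.08, 4 of the 7 were higher. RRP36, for ribosomal RNA processing, had 7.76, 14.1, 8.06 and 9.83 scaled TPM in Phenol heat and 24.4, 17.5, 15 and 20.9 in RNeasy heat, and it fell by 0.92 ± 0.19 as EAF7 and JNM1 fell. ERV25 was the gene the PCR was normalized to, and the others were picked in the study on these samples, so their directions are not independent evidence.

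Strongly heat-induced transcripts were taken from the Direct-zol libraries, which are on neither side of this comparison, as those at least 2 higher on the log2 scale after heat shock and called there. Of 249 such transcripts, 66 (26.5%) were higher and 14 (5.62%) lower in Phenol than in RNeasy, and 169 were not called, with a median log2 fold change of 0.21. Among all transcripts tested 24.2% were higher and 21.4% lower, so the share higher was near that of all transcripts and the share lower was smaller. The 14 lower is an unsteady count, which was 30 with the replicate block set within each treatment and 8 without RNeasy heat replicate 3. With TPM as deposited 37 of the 249 were higher and 73 lower, against 658 higher and 2945 lower of all 5870 transcripts. As a whole the 249 held 17.9 ± 1.47% of deposited TPM in Phenol heat and 19.9 ± 2.00% in RNeasy heat (SD, n = 4 each), with overlapping libraries.

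Of the 15 most induced transcripts 5 were higher in Phenol and 0 were lower, against 24.2% higher and 21.4% lower among all transcripts tested. HSP26, the small heat shock protein that binds unfolding proteins, had 5423, 7816, 8302 and 7634 scaled TPM in Phenol heat and 5515, 8128, 8181 and 7415 in RNeasy heat. The libraries of both groups covered the same range, and the fold change was -0.00 ± 0.23 (SE). SSA4, the stress-inducible Hsp70, was at 0.17 ± 0.18, but at -0.61 (adjusted p = 0.0076, limma) with quantile normalization, which moves the most abundant transcripts. ALD3, an aldehyde dehydrogenase, was at 0.31 ± 0.15, with 40.4% of its 50-base sequences shared.

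Higher were TKL2, a minor transketolase, YCL048W-A, of unknown function, HXT5, a hexose transporter of slow-growing cells, FMP45, a membrane protein of the SUR7 family, and GND2, a minor phosphogluconate dehydrogenase. TKL2 had 527, 653, 575 and 546 scaled TPM in Phenol heat and 234, 337, 268 and 244 in RNeasy heat, a rise of 1.09 ± 0.17 (adjusted p = 2.7e-05, limma). HXT5 had 482, 595, 630 and 451 scaled TPM in Phenol heat and 252, 327, 325 and 230 in RNeasy heat and rose by 0.93 ± 0.13. Both had Phenol libraries that were all above the RNeasy libraries. YCL048W-A rose by 1.09 ± 0.29, FMP45 by 0.74 ± 0.14 and GND2 by 0.47 ± 0.10, and all 3 calls were lost with TPM as deposited (adjusted p = 0.022, 0.014 and 0.32, limma). Not called were YNL194C at 0.73 ± 0.26, ARO10 at 0.46 ± 0.16, NQM1 at -0.11, FMP16 at -0.16, SIP18 at -0.36, EGO4 at -0.37 and LSO1, the paralog of LSO2, at -0.62 ± 0.22 (adjusted p = 0.023, limma).

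Across the strongly induced transcripts the same properties went with the fold change, with exceptions. The rank correlation between A content and fold change was -0.80 over the 244 with an ORF. Of 77 in the A-poorest bin 53 were higher and 0 lower, at a median of 0.78, and of 23 in the A-richest bin 0 were higher and 8 lower, at a median of -0.48. Of 59 with a hydrophobic window 29 were higher and 0 lower, at a median of 0.68, and of 185 without one 35 were higher and 14 lower, at a median of 0.09. TMA10, a small ribosome-associated protein and the lowest of them that was called, had 222, 252, 277 and 327 scaled TPM in Phenol heat and 493, 604, 524 and 618 in RNeasy heat. It fell by 1.06 ± 0.29, and every Phenol library was below every RNeasy library. ATG8, the ubiquitin-like protein of autophagy, had 103, 126, 166 and 127 scaled TPM in Phenol heat and 172, 236, 286 and 205 in RNeasy heat and fell by 0.78 ± 0.12. It went against the order by A content, with 31.6% A, below the median of 32.7% over all ORFs.

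Chaperones, as the classic heat shock genes, were little affected as a group. Of 24 cytosolic chaperone genes 5 were higher and 1 lower, with a median of -0.00, which was -0.41 with quantile normalization. HSP104, the disaggregase, averaged 3870 ± 813 scaled TPM in Phenol heat and 3654 ± 931 in RNeasy heat, and HSP82, the inducible Hsp90, averaged 4437 ± 506 in Phenol heat and 4468 ± 643 in RNeasy heat (SD, n = 4 each). The higher members were 4 Hsp70 genes and SSE1, an exchange factor of Hsp70 (0.50, or 0.03 with quantile normalization). SSA1 had 6337, 7170, 7320 and 8110 scaled TPM in Phenol heat and 3469, 4985, 4619 and 4287 in RNeasy heat and rose by 0.74 ± 0.13, with a call that was lost with quantile normalization (adjusted p = 0.49, limma). SSA2 rose by 0.94, and the ribosome-bound SSB1 and SSB2, which are lowered by heat, by 1.04 and 1.00. These 4 genes are not well separated by their reads. Of their 50-base sequences, 57.9% in SSA1, 58.2% in SSA2 and 43.2% in both SSB1 and SSB2 occur in other annotated ORFs. CDC37, a co-chaperone of Hsp90, fell by 0.79 ± 0.09. BTN2, which sorts aggregates, had 101, 257, 429 and 264 scaled TPM in Phenol heat and 166, 524, 788 and 601 in RNeasy heat. Its fold change of -0.95 ± 0.32 was not called (adjusted p = 0.016, limma), and replicate 1 was lowest in both groups.

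Of 8 mitochondrial chaperone genes SSC1, the matrix Hsp70, rose by 0.80 ± 0.11 and HSP60, the chaperonin, by 0.51 ± 0.08, or -0.01 with quantile normalization, while MGE1, the exchange factor of SSC1, fell by 0.55 ± 0.10. Of 7 trehalose genes 4 were higher and 0 lower, at a median of 0.45, or -0.03 with quantile normalization. TSL1 rose by 0.93 ± 0.24 and TPS1, the synthase, by 0.47 ± 0.14, or -0.03 with quantile normalization, and NTH2, a trehalase, was at -0.01 ± 0.09. The calls of TSL1 and TPS1 were both lost without the replicate block (adjusted p = 0.023 and 0.050, limma). Of 7 small general stress proteins 0 were called, from DDR2 at 0.82 ± 0.32 to STF2 at -0.53 ± 0.20, and HSP12, a membrane-binding protein and their most abundant member, had 13798, 21934, 18254 and 21428 scaled TPM in Phenol heat and 20751, 26102, 20755 and 24060 in RNeasy heat. Of 11 stress transcription factors 2 were higher and 4 lower. HAC1, the factor of the unfolded protein response, rose by 0.78 ± 0.10, HSF1, the heat shock factor, fell by 0.24, and MSN2 was at 0.07 and MSN4 at 0.04, or -0.31 with TPM as deposited. RPN4, which controls proteasome genes, was at -0.42 ± 0.19.

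**Figure D4:**
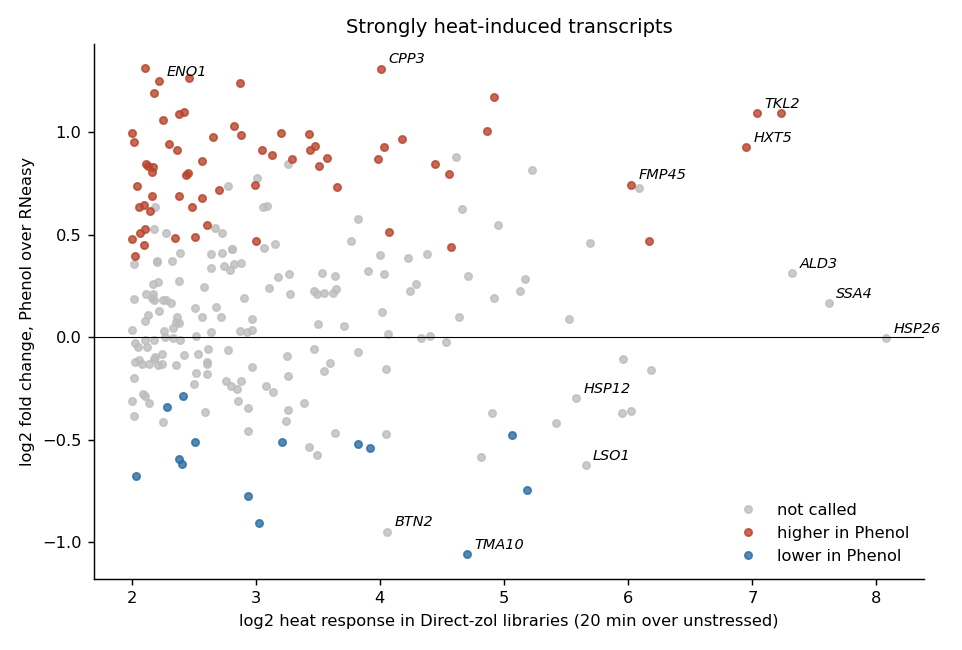
log2 fold change of Phenol over RNeasy in heat-shocked cells (y axis) against the log2 heat response in Direct-zol libraries (x axis) for 249 strongly heat-induced transcripts, coloured by call. Most points lie above 0, and among the most induced HSP26 is at -0.00 and TKL2 at 1.09.

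The differences between the methods were close to those in unstressed cells. There, 1378 transcripts (23.5%) were higher and 1190 (20.3%) lower in Phenol than in RNeasy. Of the 2677 calls in heat-shocked cells 2189 (81.8%) were also made in unstressed cells in the same direction, which is 85.2% of the 2568 unstressed calls, and 0 transcripts were called in opposite directions. These contrasts share no library, though the samples came from the same cultures. Across the 5870 transcripts the log2 fold changes correlated at Pearson's r 0.87 and Spearman's rank correlation 0.89, and 87.9% had the same sign. For A content the rank correlation was -0.75 in unstressed cells, against -0.80 in heat-shocked cells. Of the 488 called only in heat-shocked cells, 479 had the same sign in unstressed cells.

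No transcript (0%) passed the test of the difference between heat-shocked and unstressed cells (limma, FDR under 0.01), and 250 had an unadjusted p under 0.05, which is 4.26% of those tested. The smallest adjusted p was 0.31, for HBT1, a protein linked to polarized cell shape. HBT1 had 391, 466, 515 and 422 scaled TPM in Phenol heat and 196, 281, 309 and 208 in RNeasy heat, with no overlap. Its log2 fold change was 0.87 ± 0.10 in heat-shocked cells and 0.18 in unstressed cells. The HBT1 ORF holds 34.2% A, above the median of 32.7% over all ORFs, and encodes no hydrophobic window. HBT1 was the 1 transcript called for the difference when the replicate block was set within each treatment. Among the 249 strongly induced transcripts, 0 were called for the difference and 11 had an unadjusted p under 0.05. Their median log2 heat response was 2.84 in Phenol and 2.82 in RNeasy.

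**Figure D5:**
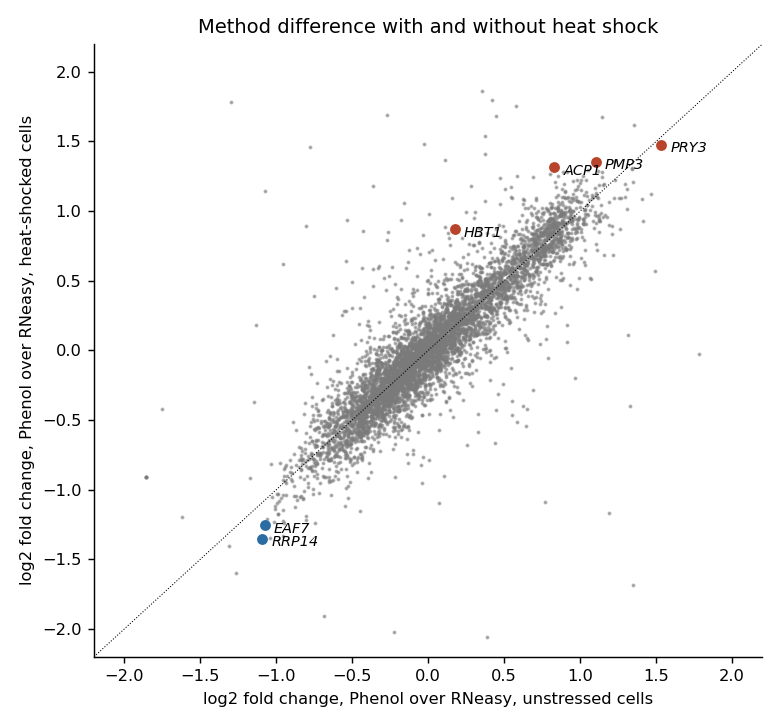
log2 fold change of Phenol over RNeasy in heat-shocked cells (y axis) against that in unstressed cells (x axis) for the tested transcripts, 3 of which lie outside the axes; the dotted line marks equal values. Most points follow the line. PRY3 and PMP3 are marked toward the top and RRP14 and EAF7 toward the bottom, and HBT1 at 0.87 and 0.18 lies above the line.

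Of the 210 transcripts tested without an annotated ORF, 38 (18.1%) were higher and 3 (1.43%) lower. Among all transcripts tested 24.2% were higher and 21.4% lower, so both shares were below those of all transcripts. Whether reads were counted by strand is not given in the sources used here, so for overlapping genes the reads of both cannot be told apart. Among all 2677 transcripts called, 82 shared at least 10% of their 50-base sequences with other annotated ORFs, and 59 overlapped another annotated gene. Among all 5870 tested these counts were 283 and 177. Sequence outside annotated ORFs was not compared.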

How the data were processed

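RNA-seq of 24 poly(A)-selected libraries, prepared in 1 batch and sequenced on 1 lane, was used. Per the submitters' notes the reads were trimmed with Trimmomatic, aligned with STAR to sacCer3 (R64) and quantified with RSEM. The authors deposited TPM, scaled to the same total within a library and not between libraries, and edgeR comparison columns (fold changes and p-values), which were not used. TPM keep no read counts. Read totals and expected counts from the study's supplements were not used here, so no depth is given, and precision is taken from the replicate spread. Groups were taken from the labels.

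Each library's TPM were rescaled by its trimmed mean log ratio to the mean library (trim 30% of ratios and 5% of abundances), and log2(value + 1) was fitted for the 5870 transcripts of the authors' comparisons of 6685 in limma 3.58.1 (R 4.3.3), with 6 groups and replicate as factors, all 24 libraries and trended moderation. The replicate block follows the study's methods, in which same-numbered samples came from the same culture. In the data same-numbered Phenol and RNeasy deviations correlated by 0.20 on average, and differently numbered ones by -0.06. Fold changes understate the change of low transcripts. Transcripts were called at an FDR under 0.01, and the fit was tested on simulated data. ORFs came from RefSeq for 5660 transcripts.

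Named were the 10 highest and 10 lowest transcripts with an ORF (called, same direction in all pairs, not overlapping in deposited TPM, mean of at least 10 TPM), the 15 most heat-induced with Direct-zol, the highest, lowest and most abundant member of each gene list, and the 7 qPCR genes. TMA10, ATG8, HBT1, SSA1, SSA2, SSB2, HSP104, HSP82, CDC37, SSE1, HSF1, MSN2, MSN4 and the stalk proteins were chosen after their values were seen. The members and lists were chosen with earlier results of these data known. Alternatives covered scaling, pseudocount, filter, block, libraries, FDR, induction and windows. P-values measure the spread between these samples.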

Additional observations from a re-analysis of the deposited data

Results flagged for a closer look

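In groups of 4 libraries, a value was picked out where its gap to the nearest other library was too large a part of the group's range (Dixon's test at 95%). Of 270 groups tested over the named genes 5 were picked out, fewer than the 5% that chance gives. EFG1 stood at 18.1 scaled TPM in Phenol heat replicate 2, against 10.6 to 11.4 in the other Phenol libraries. FIT1 stood at 4.85 scaled TPM in the same library, against 7.18 to 7.50. JNM1 stood at 7.41 scaled TPM in Phenol heat replicate 1, against 13.6 to 14.7, and SEC72 at 131 scaled TPM in Phenol heat replicate 4, against 145 to 146. NOP1 stood at 163 scaled TPM in RNeasy heat replicate 1, against 117 to 123 in the other RNeasy libraries. EFG1, JNM1 and SEC72 remained on the same side of all RNeasy libraries with these values.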

How the results depend on the processing

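Scaling mattered most. With TPM as deposited 658 transcripts were higher and 2945 lower, against 1419 and 1258, and of the strongly heat-induced 37 were higher and 73 lower, against 66 and 14. Unscaled, ERP5 (-0.32), SSY1 (-0.0908), PIL1 (-0.23), ARP7 (-0.31) and MSN4 (-0.31) turned negative, though each lay above the unscaled median of all transcripts (-0.35). With quantile normalization SSA4 (-0.61), HSP60 (-0.0077), TPS1 (-0.0253) and PIL1 (-0.24) turned negative. That setting counted 47 strongly induced transcripts as lower, and 1398 of all transcripts. The relation with A content kept its sign under every alternative and was weakest with quantile normalization (rank correlation -0.73). Several alternatives could hardly change it. A scaling factor for each library shifts all fold changes nearly alike, and the replicate block leaves fold changes unaltered when all libraries are used.

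The replicate block moved the total count of calls by less than 1.5 times. Without it 2521 transcripts were called, and 9 strongly induced ones were lower. With the block within treatment these counts were 2984 and 30, and 1 transcript differed between treatments, and with only the 8 libraries 2288 and 25. At an FDR under 0.05, 26 strongly induced transcripts were lower, and 1644 of all transcripts. Of the 107 induced by at least 3 on the log2 scale 26 (24.3%) were higher and 7 (6.54%) lower. Leaving out 1 library at a time gave 2289 to 2686 calls, 1246 to 1429 higher and 1030 to 1257 lower, 54 to 74 strongly induced higher and 8 to 13 lower (8 without RNeasy heat replicate 3, 9 without Phenol heat replicate 2 or RNeasy heat replicate 4), and 0 differences between treatments. The causes were not tested.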
